A study of Mus musculus with 11 samples.

Results

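The genes described here encode the proteins of the mitochondrial ribosome. They are the protein-coding mouse genes whose symbols begin with Mrpl or Mrps and a number, without pseudogenes, and 78 of the 55416 gene identifiers in the deposited table met this rule. By symbol 49 belong to the large subunit (Mrpl) and 29 to the small subunit (Mrps). Of the 78 genes, 77 had a mean of at least 10 normalized counts over all libraries and were tested. Mrpl53 was not tested, since it was at 0 in 10 of the 11 libraries and at 1.02 normalized counts in the remaining one, and 88.0% of its exon bases are shared with other annotated genes.

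Polyadenylated RNA was sequenced from EC4, a mouse liver cancer cell line, after 24 h in DMEM. Cells labelled MYC high were kept at 10 µM methionine (n = 3) or 200 µM (n = 2, replicates 2 and 3), and so were cells labelled MYC low (n = 3 in each medium). MYC high and MYC low carry the genotype labels MYC on and MYC off, and all cells had been grown at 200 µM before treatment. The title of the series concerns methionine use in liver tumours driven by MYC. All libraries come from this 1 line, the labels do not give how MYC was switched, and they do not say that replicates were separate cultures, so p-values reflect only how far these libraries spread, and that spread may be technical.

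Mitochondria translate the few proteins encoded in their own DNA, which are subunits of the respiratory chain and of ATP synthase, on a ribosome of their own. Its ribosomal RNA is transcribed inside the organelle, while all of its proteins are made from nuclear genes in the cytosol and imported. Some of these proteins have counterparts in bacterial ribosomes, and the others are particular to mitochondria. MYC is a transcription factor known to raise the expression of many genes for ribosome and mitochondrial biogenesis.

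Libraries held 10858936 to 13085689 reads on genes, and replicates correlated across genes at Pearson r of at least 0.993. The mouse Myc transcript averaged 2089 ± 106 normalized counts with MYC high (SD, n = 2) and 1136 ± 31.3 with MYC low (SD, n = 3) in the 200 µM medium. In the 10 µM medium it averaged 336 ± 39.2 with MYC high and 336 ± 13.5 with MYC low (SD, n = 3 each). This transcript therefore did not separate the labels at 10 µM (limma adjusted p = 0.949), and directions at 10 µM rest on the labels. The value covers the mouse Myc gene alone, so any MYC RNA from a transgene of another species may be missing from it. The 6 hepatocyte markers examined summed to at most 3.04 normalized counts in any library, with Alb and Serpina1a at 0 throughout, so defining transcripts of hepatocytes were absent or near 0 in these liver-derived cells. The 6 fibroblast and stellate markers and the 4 endothelial markers summed to at most 25.3 and 4.41. Among 4 fetal liver markers (Gpc3 at 0) only Afp was above the filter, and they summed to 337–366 and 150–162 with MYC high, and to 118–146 and 78.0–106 with MYC low, at 10 and 200 µM in that order. The 4 biliary markers (Epcam at 0) summed to 11581–12737 at 10 µM and 1605–1652 at 200 µM with MYC high, and to 11151–11378 at 10 µM and 3273–3578 at 200 µM with MYC low. Nearly all of this sum was Krt19, at a mean of 7441 beside 126 for Sox9 and 39.2 for Krt7. Krt19 and Krt7 were higher at 10 than at 200 µM in both MYC states, whereas Sox9 was lower (log2 −1.79 with MYC high and −0.74 with MYC low). The 5 macrophage markers (Ptprc at 0) summed to 873–906 and 263–286 with MYC high, and to 931–974 and 482–533 with MYC low, at 10 and 200 µM in that order. Only Csf1r (mean 481) and Cd68 (mean 209) were above the filter among them, with Adgre1 and Lyz2 at means of 0.088 and 0.495. The part of these transcripts in the results below was not tested.

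Promoter windows of 6 members are printed as examples. Mrpl45 and Mrps30 had the largest MYC differences at 200 µM. In MYC high cells Mrps31 and Mrps18b had the largest declines at low methionine, and Mrpl14 the largest increase. Mrpl36 was taken from the 5 members whose windows hold the canonical E-box that MYC binds. Each window runs from 250 bases before to 50 bases after the annotated start in RefSeq on GRCm38.p6, and is written 5′ to 3′ on the strand of the gene. Capitals mark matches on either strand to the letters CACGTG (canonical E-box), CACGCG (a non-canonical E-box), CCGGAAG (ETS family) and AAGATGGCG (YY1), or to the NRF1 letters, which are GCGCA followed by its reverse complement. The windows lie at chr11:97315466-97315765 on the plus strand for Mrpl45, chr13:118387203-118387502 on the minus strand for Mrps30, and chr8:22411090-22411389 on the plus strand for Mrps31. Mrps18b lies at chr17:35916391-35916690 on the minus strand, Mrpl14 at chr17:45686099-45686398 on the plus strand and Mrpl36 at chr13:73330759-73331058 on the plus strand.
Mrpl45: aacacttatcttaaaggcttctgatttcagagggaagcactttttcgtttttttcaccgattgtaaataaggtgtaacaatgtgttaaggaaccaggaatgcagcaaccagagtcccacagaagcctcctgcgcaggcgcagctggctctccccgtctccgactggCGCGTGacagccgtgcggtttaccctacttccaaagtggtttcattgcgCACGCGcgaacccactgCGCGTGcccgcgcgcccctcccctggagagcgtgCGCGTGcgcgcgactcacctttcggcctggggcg
Mrps30: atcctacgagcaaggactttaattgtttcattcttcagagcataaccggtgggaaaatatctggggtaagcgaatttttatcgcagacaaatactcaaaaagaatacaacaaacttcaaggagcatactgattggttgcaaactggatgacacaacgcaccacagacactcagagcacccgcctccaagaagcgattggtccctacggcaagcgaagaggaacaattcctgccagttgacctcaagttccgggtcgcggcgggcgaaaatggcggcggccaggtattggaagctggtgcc
Mrps31: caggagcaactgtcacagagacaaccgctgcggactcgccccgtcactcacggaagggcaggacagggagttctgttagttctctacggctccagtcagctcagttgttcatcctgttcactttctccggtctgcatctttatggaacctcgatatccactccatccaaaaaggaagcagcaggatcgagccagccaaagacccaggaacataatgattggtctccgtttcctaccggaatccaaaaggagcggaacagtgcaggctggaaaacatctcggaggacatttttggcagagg
Mrps18b: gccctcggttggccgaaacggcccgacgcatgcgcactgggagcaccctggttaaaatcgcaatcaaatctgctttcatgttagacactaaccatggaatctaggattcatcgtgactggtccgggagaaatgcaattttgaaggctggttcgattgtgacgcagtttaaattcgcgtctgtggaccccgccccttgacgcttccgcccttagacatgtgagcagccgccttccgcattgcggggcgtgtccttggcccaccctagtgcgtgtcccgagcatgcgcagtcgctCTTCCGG
Mrpl14: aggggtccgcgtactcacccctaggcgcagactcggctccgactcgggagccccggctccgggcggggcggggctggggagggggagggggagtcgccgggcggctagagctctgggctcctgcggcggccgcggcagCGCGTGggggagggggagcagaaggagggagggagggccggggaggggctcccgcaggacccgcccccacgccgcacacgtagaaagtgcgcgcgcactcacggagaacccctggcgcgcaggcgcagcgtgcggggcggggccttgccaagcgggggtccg
Mrpl36: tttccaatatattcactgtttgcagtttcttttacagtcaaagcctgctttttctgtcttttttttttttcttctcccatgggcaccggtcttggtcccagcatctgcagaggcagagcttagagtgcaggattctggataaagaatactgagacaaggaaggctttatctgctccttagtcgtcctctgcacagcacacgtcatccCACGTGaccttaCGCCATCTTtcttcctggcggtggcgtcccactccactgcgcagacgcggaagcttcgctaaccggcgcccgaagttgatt

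The Mrpl45 window holds 4 matches to CACGCG, written CGCGTG where they lie on the opposite strand, and the Mrpl14 window holds 1. The Mrps18b window ends in 1 ETS match, and the Mrpl36 window holds 1 canonical E-box and 1 YY1 match. The Mrps30 and Mrps31 windows hold none of these letters, from which nothing follows about any factor. Of the 78 members 69 had a window, and Mrpl13, Mrpl15, Mrpl19, Mrpl38, Mrpl4, Mrpl54, Mrps28, Mrps34 and Mrps35 had none. The ETS letters were in 26 of the 69 members (37.7%), against 21.5% of 9263 tested genes with a window and 8.86% of all 32851 windows. The YY1 letters were in 8 members (11.6%, against 3.85% and 1.40%) and the NRF1 letters in 3 (4.35%, against 2.45% and 0.971%). The canonical E-box was in 5 members (7.25%, against 12.1% and 7.15%), which are Mrpl2, Mrpl20, Mrpl36, Mrpl37 and Mrps18c. The non-canonical E-box was in 13 members (18.8%, against 20.6% and 9.27%), 11 of them large subunit genes and 2 small. No match overlapped a match to another motif in the members' windows. A match to letters is a description and not evidence of binding.

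The members spanned a wide range of levels. Per kilobase of the longest annotated coding transcript, Mrpl12, the flexible stalk protein that contacts translation factors, stood highest at 1453 normalized counts per kb averaged over all libraries. Mrps21 followed at 1154 and was the most abundant small subunit transcript, while Mrpl35 (63.1) and Mrps17 (85.2) had the lowest averages of the large and small subunits. The order varied with the group. Mrps16 was the lowest small subunit gene at 200 µM, at 87.5 per kb with MYC high and 75.2 with MYC low, and in MYC high cells at 200 µM Mrpl38 (1258), Mrpl43 (1242) and Mrpl34 (1164) stood above Mrps21 (1145). The median member stood at 401 per kb in the large subunit and 284 per kb in the small subunit. In MYC low cells at 10 µM the order of the leading pair was turned round, at 1224 per kb for Mrpl12 and 1231 per kb for Mrps21, a gap within the spread of either gene. Replicates of a group were close, with a median coefficient of variation over members of 3.91% to 5.81%.

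Summed over the 78 members, transcripts were 1.37 to 1.42 times as abundant with MYC high as with MYC low, and the small subunit share of the sum lay between 32.4% and 33.5% in all 11 libraries. At 200 µM the sum was 48377 and 47504 normalized counts in MYC high cells, against 35090, 34937 and 35073 in MYC low cells, a ratio of means of 1.37. At 10 µM it was 50397, 52894 and 48542 in MYC high cells, against 35873, 35887 and 35220 in MYC low cells, a ratio of 1.42. No MYC high library overlapped a MYC low library in either medium. The ratio of means between media was far smaller, at 1.06 for 10 against 200 µM in MYC high cells and 1.02 in MYC low cells. At 10 µM the small subunit genes made up 32.8% ± 0.356 of the sum with MYC high and 32.8% ± 0.411 with MYC low (SD, n = 3 each). At 200 µM they made up 32.8% ± 0.356 with MYC high and 33.2% ± 0.318 with MYC low (SD, n = 2 and 3). Without the 5 members of highest mean count the share was lower at 10 than at 200 µM, at 35.7% ± 0.443 at 10 µM and 37.3% ± 0.458 at 200 µM with MYC high, and 35.7% ± 0.347 and 36.5% ± 0.361 with MYC low, and libraries of the 2 media did not overlap in either MYC state, a difference that was not tested. As a percent of all reads the members made up 0.386% with MYC high and 0.299% with MYC low at 200 µM, and 0.420% and 0.308% at 10 µM. Normalized counts are reads scaled between libraries and not amounts per cell, so fewer cells and less RNA per cell cannot be told apart from these values.

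**Figure D1:**
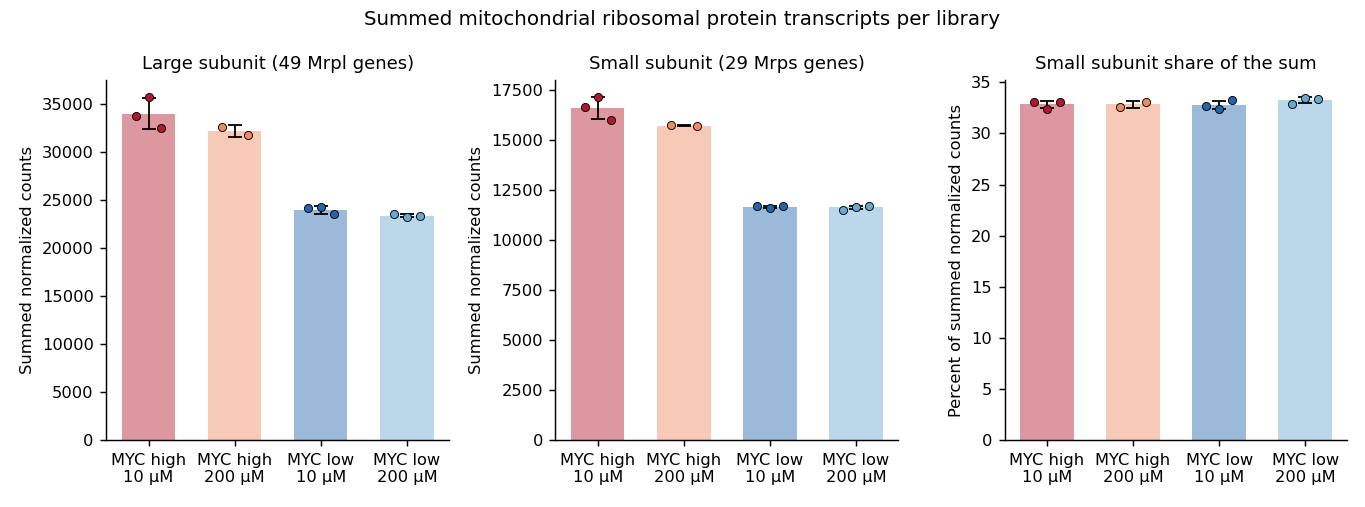
Summed normalized counts of the 49 large subunit genes (left) and the 29 small subunit genes (middle), and the small subunit share of their total in percent (right), in each library. Points are libraries, bars are group means and error bars are SD (n = 3, or 2 for MYC high at 200 µM). Both sums are higher in each MYC high library than in every MYC low library, while the share lies between 32.4% and 33.5% in all 11.

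At 200 µM methionine MYC high cells had more transcript of most mitochondrial ribosomal protein genes, by modest amounts. With limma and Benjamini-Hochberg adjustment over 12909 genes at a threshold of 0.05, 58 of the 77 tested members were higher, 5 were lower and 14 did not pass. Of all genes tested 74.4% passed in this comparison, 36.8% higher and 37.6% lower. The members had a median log2 difference of 0.43, which is 1.35-fold, beside −0.0031 over all genes, and 2 members were at least 2-fold higher and 0 as much lower, where 6.79% and 12.1% of all genes were. The largest differences belonged to Mrpl45, Mrps30 and Mrps31.

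Mrpl45 (ENSMUSG00000018882), a protein at the exit of the peptide tunnel that links the ribosome to the inner membrane, had 2516 and 2569 normalized counts in MYC high cells, against 1141, 1158 and 1216 in MYC low cells. The groups did not overlap, and the difference was 2.17-fold (log2 1.12, SE 0.045, adjusted p = 1.17e-22). Mrps30 (ENSMUSG00000021731), which despite its symbol sits in the large subunit, had 1044 and 1118 in MYC high cells, against 530, 481 and 528 in MYC low cells. It was 2.11-fold higher (log2 1.07, SE 0.063, adjusted p = 7.49e-18), again without overlap, and 9.35% of its exon bases are shared with B430218F22Rik on the opposite strand, which was higher by 1.05. Mrps31 (ENSMUSG00000031533), a small subunit protein particular to mitochondria, had 649 and 638 in MYC high cells, against 339, 307 and 326 in MYC low cells. All MYC high libraries lay above the MYC low ones (log2 0.99, SE 0.098, adjusted p = 1.87e-11).

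Among the members fixed by role, the stalk protein gene Mrpl12 was higher in MYC high cells at 2132 and 2031 normalized counts, against 1457, 1428 and 1483 in MYC low cells (log2 0.52, SE 0.048). Mrpl11, at the base of the stalk, was higher by 0.61, and Mrpl3 and Mrpl4, core proteins of the large subunit with bacterial counterparts, by 0.47 and 0.55. Mrpl32, which the protease subunit Afg3l2 helps to mature in the organelle before it joins the ribosome, was higher by 0.30, a call that was lost without replicate 2 of MYC high cells at 200 µM (0.25, adjusted p = 0.0606). In the small subunit Mrps7 (0.80), Mrps6 (0.82), Mrps22 (0.63), Mrps12 of the decoding region (0.58) and Mrps34 (0.55) were higher on the log2 scale. Mrps34 shares 77.8% of its exon bases with other genes. Mrps6 shares 19.9% with genes on the same strand, of which Slc5a3 was higher by 1.22. Mrps7 shares 11.9% with Gga3 and Mif4gd on the opposite strand, which differed by 0.72 and 0.04. Mrps2 was higher by 0.19, a call lost without replicate 3 of MYC high cells at 200 µM (0.09, adjusted p = 0.302) and under equal library totals (0.10, adjusted p = 0.156). Mrps16 did not pass (0.23, adjusted p = 0.0515, 95% interval 0.01 to 0.44), and it passed without replicate 2 of MYC low cells at 200 µM (0.34, adjusted p = 0.00604) or replicate 3 of MYC high cells at 10 µM (adjusted p = 0.0401).

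Against the majority, 5 members were lower in MYC high cells at 200 µM. Mrps33 (ENSMUSG00000029918) had 134 and 145 normalized counts in MYC high cells, against 179, 203 and 247 in MYC low cells (log2 −0.57, SE 0.113, adjusted p = 2.58e-05). Mrpl58 (ENSMUSG00000018858), a peptidyl-tRNA hydrolase that frees stalled chains and is built into the large subunit, had 251 and 213 in MYC high cells, against 330, 354 and 317 in MYC low cells (log2 −0.52, SE 0.083, adjusted p = 6.87e-07). Neither gene overlapped between groups. Mrpl24 (−0.41, SE 0.072) and Mrpl14 (−0.40, SE 0.080) were also lower, and 26.3% of the exon bases of Mrpl24 are shared with Rrnad1 on the opposite strand. Mrpl30 was lower by −0.15 (adjusted p = 0.0421). That call was lost when replicate 2 or 3 of MYC high cells at 200 µM or replicate 1 or 3 of MYC low cells at 200 µM was left out (adjusted p = 0.0831 to 0.143), with DESeq2 (0.133) and with no filter on low values (0.0743).

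At 10 µM methionine most members were higher in MYC high cells, although the Myc transcript was level between the labels. Of 77 members 68 were higher, 0 were lower and 9 did not pass with limma, where 71.5% of all genes passed, 35.7% higher and 35.8% lower. DESeq2 and edgeR also called 0 members lower, and the lowest log2 difference was −0.12, that of Mrps18c. The median log2 difference of the members was 0.41, beside 0.0015 over all genes, and 3 members were at least 2-fold higher and 0 as much lower, where 6.41% and 7.92% of all genes were. The 3 were Mrps30, Mrps35 and Mrpl15.

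Mrps30 had 1003, 997 and 903 normalized counts in MYC high cells at 10 µM, against 443, 424 and 417 in MYC low cells (log2 1.17, SE 0.056, adjusted p = 1.61e-20). Mrps35 (ENSMUSG00000040112), a small subunit protein particular to mitochondria, had 706, 714 and 659 in MYC high cells, against 323, 327 and 332 in MYC low cells (log2 1.08, SE 0.064, adjusted p = 1.16e-17). Mrpl15 (ENSMUSG00000033845), with a bacterial counterpart in the large subunit, had 1512, 1544 and 1406 in MYC high cells, against 750, 760 and 717 in MYC low cells (log2 1.0, SE 0.050, adjusted p = 6.09e-20). In these 3 genes every MYC high library stood above every MYC low library by a wide margin. Mrpl45 was higher by 0.93, Mrps9 by 0.94, Mrpl4 by 0.87, Mrpl3 by 0.73, Mrps34 by 0.72, Mrps22 by 0.70 and Mrpl12 by 0.67 on the log2 scale. Smaller differences that passed were those of Mrps6 (0.49), Mrps2 (0.40), Mrps12 (0.37), Mrps31 (0.37), Mrps7 (0.34), Mrpl32 (0.32), Mrps16 (0.30) and Mrpl11 (0.28).

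Of the 77 members, 55 (71.4%) were higher in MYC high cells in both media, where 23.2% of all genes were. These comparisons share no libraries. A further 10 were higher at 10 µM and did not pass at 200 µM (13.0% of members, against 7.26% of all genes), among them Mrps35, Mrps9, Mrps15 and Mrpl2. Mrps18a, Mrps18c and Mrps21 were higher at 200 µM and did not pass at 10 µM (3.9%, against 8.78% of all genes), and Mrpl24 and Mrps33 were lower at 200 µM and did not pass at 10 µM (2.60%, against 8.63%). The call of Mrps21 (0.23) was lost without replicate 2 of MYC high cells at 200 µM (0.16, adjusted p = 0.0807) and under equal library totals (0.14, adjusted p = 0.0558). Mrpl14, Mrpl30 and Mrpl58 were lower at 200 µM and higher at 10 µM (3.9%, against 5.23% of all genes). For Mrpl58 the call at 10 µM (0.23, adjusted p = 0.00691) was lost without replicate 2 of MYC low cells at 10 µM (0.18, adjusted p = 0.0535). Mrpl33, Mrpl41, Mrps11 and Mrps36 passed in neither medium, which does not show that they were level. Their 95% intervals at 200 µM ran from −0.23 to 0.22 for Mrpl33, −0.14 to 0.27 for Mrpl41, −0.08 to 0.36 for Mrps11 and −0.40 to 0.04 for Mrps36.

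**Figure D2:**
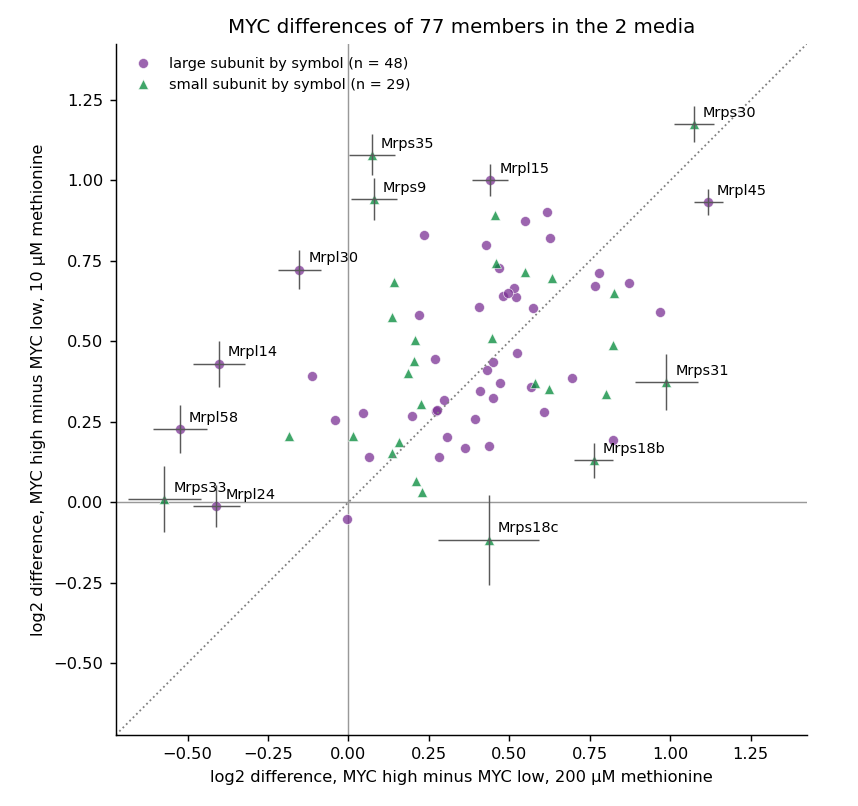
Log2 difference of MYC high minus MYC low cells at 200 µM (horizontal) and at 10 µM methionine (vertical) for the 77 tested members, circles for large and triangles for small subunit genes by symbol. Bars on labelled genes are limma's SE and the dotted line marks equal differences. Most points lie above 0 on both axes, while Mrpl14, Mrpl30 and Mrpl58 lie left of 0 and above 0, and Mrps35 and Mrps9 lie near 0 at 200 µM and near 1.08 and 0.94 at 10 µM.

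Most genes of both subunits were higher in MYC high cells, and their medians were closer at 10 than at 200 µM. At 200 µM, 39 of 48 large subunit genes were higher and 4 lower with a median log2 difference of 0.43, and 19 of 29 small subunit genes were higher and 1 lower with a median of 0.23. At 10 µM, 45 of 48 large and 23 of 29 small subunit genes were higher, with medians of 0.42 and 0.40. The wider gap at 200 µM depended on naming and on single libraries. With Mrps18a and Mrps30 moved to the large subunit, where their proteins sit, and Mrps36 left out, the difference of the medians was 0.10 in place of 0.21. It was 0.094 without replicate 2 of MYC low cells at 200 µM, and 0.11 or 0.15 without replicate 2 or 3 of MYC high cells at 200 µM. Summed counts gave nearly the same ratio of MYC high to MYC low cells for both subunits, 1.38 for the large and 1.35 for the small at 200 µM, and 1.42 for each at 10 µM.

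Mrps18a, Mrps18b and Mrps18c, paralogues that descend from one bacterial small subunit protein, had differing values. Mrps18b had 1071 and 1095 normalized counts in MYC high cells at 200 µM, against 664, 614 and 637 in MYC low cells (log2 0.76, SE 0.061, adjusted p = 7.72e-14). Mrps18a, which sits in the large subunit, was higher by 0.21 at 200 µM (adjusted p = 0.00618), a call lost under equal library totals (0.12, adjusted p = 0.0968), and its difference at 10 µM was 0.07 (adjusted p = 0.334). Mrps18c, the least abundant of them at 75.4 to 129 normalized counts, was higher by 0.44 at 200 µM (adjusted p = 0.0125). That call was lost without replicate 2 of MYC high cells at 200 µM (0.27, adjusted p = 0.223) or replicate 1 of MYC low cells at 200 µM (0.36, adjusted p = 0.0571). At 10 µM Mrps18b differed by 0.13 (adjusted p = 0.0332), which was lost without replicate 1 or 2 of MYC high or replicate 2 of MYC low cells at 10 µM (adjusted p = 0.0692 to 0.163), with DESeq2 (0.0767), with no filter on low values (0.0514) and under equal library totals (0.07). Mrps36, whose protein is a component of the 2-oxoglutarate dehydrogenase complex, differed by −0.18 at 200 µM (adjusted p = 0.123) and 0.21 at 10 µM (adjusted p = 0.0575). Its 2 MYC high libraries at 200 µM held 223 and 162 normalized counts, and without the higher one, replicate 2, it was lower by −0.41 (adjusted p = 0.00326).

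In MYC high cells 24 h at 10 µM methionine changed most members, more of them upward than downward. Against 200 µM, 39 of 77 members were higher, 15 were lower and 23 did not pass with limma, where 75.8% of all genes passed, 37.9% in each direction. The median log2 difference of the members was 0.16, beside −0.0039 over all genes. The share called was thus near that of all genes, with the balance of directions shifted upward. Mrpl14 and Mrps9 were at least 2-fold higher and Mrps31 at least 2-fold lower, where 13.0% and 9.18% of all genes were.

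Mrpl14 (ENSMUSG00000023939), a core large subunit protein at the face that meets the small subunit, had 767, 853 and 686 normalized counts at 10 µM, against 215 and 241 at 200 µM. It was 3.36-fold higher (log2 1.75, SE 0.080, adjusted p = 4.29e-21), and 11.2% of its exon bases are shared with Tmem63b on the opposite strand, which was higher by 0.45. Mrps9 (ENSMUSG00000060679), a small subunit protein with a bacterial counterpart, had 765, 690 and 754 at 10 µM, against 367 and 348 at 200 µM (log2 1.04, SE 0.072, adjusted p = 1.19e-15). Mrpl58 had 430, 465 and 451 at 10 µM, against 251 and 213 at 200 µM (log2 0.95, SE 0.083, adjusted p = 7.42e-13). Each of these genes was higher in every library at 10 µM than in any at 200 µM. Mrps35 (0.90), Mrps33 (0.88), Mrpl30 (0.75) and Mrpl15 (0.67) were also higher in MYC high cells at 10 µM.

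The members that fell most in MYC high cells were Mrps31, Mrps18b and Mrpl9. Mrps31 had 196, 233 and 182 normalized counts at 10 µM, against 649 and 638 at 200 µM, a level 0.316 times as high (log2 −1.66, SE 0.098, adjusted p = 7.93e-18). Mrps18b had 551, 578 and 517 at 10 µM, against 1071 and 1095 at 200 µM (log2 −0.98, SE 0.061, adjusted p = 5.22e-17). Its exons share 30.5% of their bases with Gm16279 on the opposite strand, which was lower by −0.81. Mrpl9 (ENSMUSG00000028140), a large subunit protein with a bacterial counterpart, had 682, 632 and 622 at 10 µM, against 1195 and 1194 at 200 µM (log2 −0.89, SE 0.062, adjusted p = 1.45e-15). None of the 3 overlapped between media. Mrpl45 was lower by −0.60, Mrps18c by −0.56 and Mrpl49 by −0.38. Without replicate 2 of MYC high cells at 200 µM the value of Mrps18c was −0.39 (adjusted p = 0.0698).

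In MYC low cells fewer members passed for the same change of medium, and so did fewer of all genes. Of 77 members 28 were higher, 17 were lower and 32 did not pass with limma, where 59.4% of all genes passed, 29.4% higher and 29.9% lower. The share of members called, 58.4%, was near that of all genes. The median of the members was 0.049 and that of all genes 0.0011, and 0 members were at least 2-fold higher and 1 lower, where 3.39% and 2.17% of all genes were. Mrpl14 led again with 553, 581 and 570 normalized counts at 10 µM, against 323, 301 and 281 at 200 µM (log2 0.91, SE 0.072, adjusted p = 1.02e-13). Mrpl18 (ENSMUSG00000057388), a large subunit protein with a bacterial counterpart, had 409, 417 and 413 at 10 µM, against 247, 246 and 255 at 200 µM (log2 0.73, SE 0.067, adjusted p = 7.82e-12). Mrps6 had 565, 529 and 534 at 10 µM, against 352, 367 and 383 at 200 µM (log2 0.56, SE 0.057, adjusted p = 7.52e-11). All 3 were higher in each library at 10 µM.

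Mrps31 was the member that fell most in MYC low cells too, with 168, 156 and 146 normalized counts at 10 µM, against 339, 307 and 326 at 200 µM (log2 −1.05, SE 0.087, adjusted p = 5.19e-13). Mrpl9 (−0.51, SE 0.056) and Mrpl45 (−0.41, SE 0.040) followed it. Across both MYC states, 24 members were higher at 10 µM, 17 of them large and 7 small subunit genes, and 9 were lower in both, which are Mrpl9, Mrpl43, Mrpl45, Mrpl48, Mrpl55, Mrps17, Mrps18b, Mrps30 and Mrps31. These shares, 31.2% and 11.7%, stand beside 21.6% and 21.6% of all genes. The fall of Mrps30 in MYC high cells was small (−0.16, adjusted p = 0.0206) and lost without replicate 3 of MYC high cells at 10 µM (−0.11, adjusted p = 0.128) or replicate 3 at 200 µM (−0.11, adjusted p = 0.214). That of Mrps17 (−0.21) was lost without replicate 3 of MYC high cells at 200 µM (−0.16, adjusted p = 0.136). Among the 24 higher members, some calls in MYC low cells were lost when single MYC low libraries were left out. They were those of Mrps2 (adjusted p = 0.0609 to 0.135), Mrpl58 (0.0502 to 0.112), Mrps9 (0.0988 and 0.102) and Mrps33 (0.130). DESeq2 did not call Mrps2 (0.0761) or Mrps9 (0.0535) there, nor did limma without the low-value filter call Mrps2 (0.0546). Mrpl49 was lower at 10 µM in MYC high cells (−0.38) and higher in MYC low cells (0.25), and Mrps26 went the other way (0.25 and −0.19).

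**Figure D3:**
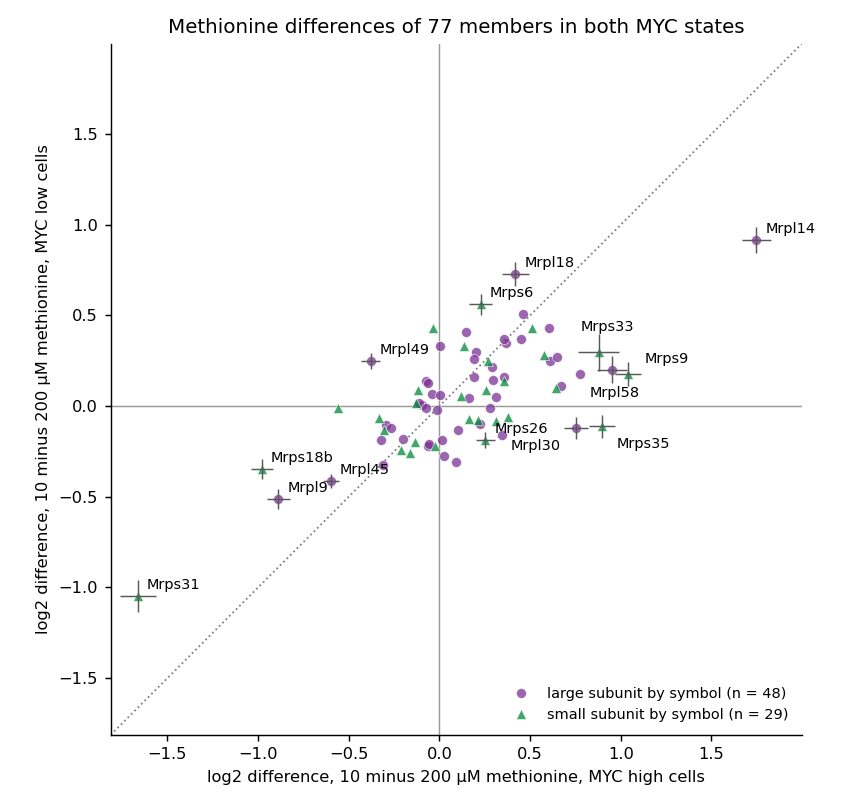
Log2 difference of 10 minus 200 µM methionine in MYC high cells (horizontal) and in MYC low cells (vertical) for the 77 tested members, circles for large and triangles for small subunit genes by symbol. Bars on labelled genes are limma's SE and the dotted line marks equal responses. Mrpl14 stands at 1.75 and 0.91 and Mrps31 at −1.66 and −1.05, while Mrps35, Mrpl30 and Mrps9 lie to the right near 0 on the vertical axis.

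By symbol, the medians of the subunits lay close together for methionine in MYC high cells. Those of members with and without a bacterial counterpart lay further apart there. In MYC low cells the gaps of both pairs were similar. In MYC high cells 25 of 48 large subunit genes were higher and 8 lower (median log2 0.15), and 14 of 29 small subunit genes were higher and 7 lower (median 0.16). With subunits assigned by place and the other-named proteins added, these medians were 0.10 and 0.22. In MYC low cells 19 large subunit genes were higher and 10 lower (median 0.064), and 9 small subunit genes were higher and 7 lower (median −0.0079). Of 46 members with a bacterial counterpart, 27 were higher and 5 lower at 10 µM in MYC high cells (median 0.22), while of 30 tested members particular to mitochondria 11 were higher and 10 lower (median −0.044). In MYC low cells the counts were 19 higher and 8 lower of 46 (median 0.076) and 9 higher and 9 lower of 30 (median −0.016). Of all genes 37.9% passed in each direction in MYC high cells, and 29.4% higher and 29.9% lower in MYC low cells. The members particular to mitochondria were near these shares in both MYC states, at 36.7% and 33.3% in MYC high cells. Those with a bacterial counterpart stood at 58.7% higher and 10.9% lower in MYC high cells, and 41.3% and 17.4% in MYC low cells. Mrps18a and Mrps18b were counted as particular to mitochondria here, although their family stems from a bacterial protein, and Mrps18c as having a bacterial counterpart. In the MYC comparisons the medians of the 2 classes were 0.44 and 0.43 at 200 µM and 0.44 and 0.37 at 10 µM, in the same order. The classes were assigned from general knowledge of the mammalian ribosome, and the differences between them were not tested.

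The interaction tested whether the methionine response of MYC high cells differed from that of MYC low cells, which is also the MYC difference at 10 µM minus that at 200 µM. It passed in 40 of 77 members with limma, 27 higher and 13 lower, where 60.4% of all genes passed, 31.0% higher and 29.4% lower. The share of members was thus below that of all genes, and 1 member had an interaction of at least 2-fold upward and 0 downward, where 8.09% and 4.75% of all genes had. The largest positive values belonged to Mrps35 (1.01, SE 0.096, adjusted p = 1.91e-11), Mrpl30 (0.88, SE 0.091) and Mrps9 (0.86, SE 0.097). Mrps35 had 706, 714 and 659 normalized counts in MYC high cells at 10 µM, and its other libraries lay between 323 and 387 whatever the MYC label or medium. The largest negative values belonged to Mrps18b (−0.63, SE 0.082, adjusted p = 2.56e-08), Mrpl49 (−0.63, SE 0.067) and Mrps31 (−0.61, SE 0.131). In MYC high cells Mrps18b averaged 549 ± 30.5 at 10 µM and 1083 ± 17.2 at 200 µM (SD, n = 3 and 2). In MYC low cells it averaged 501 ± 13.6 at 10 µM and 638 ± 25 at 200 µM (SD, n = 3 each), so that MYC high cells at 200 µM stood apart from the other 3 groups.

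**Figure D4:**
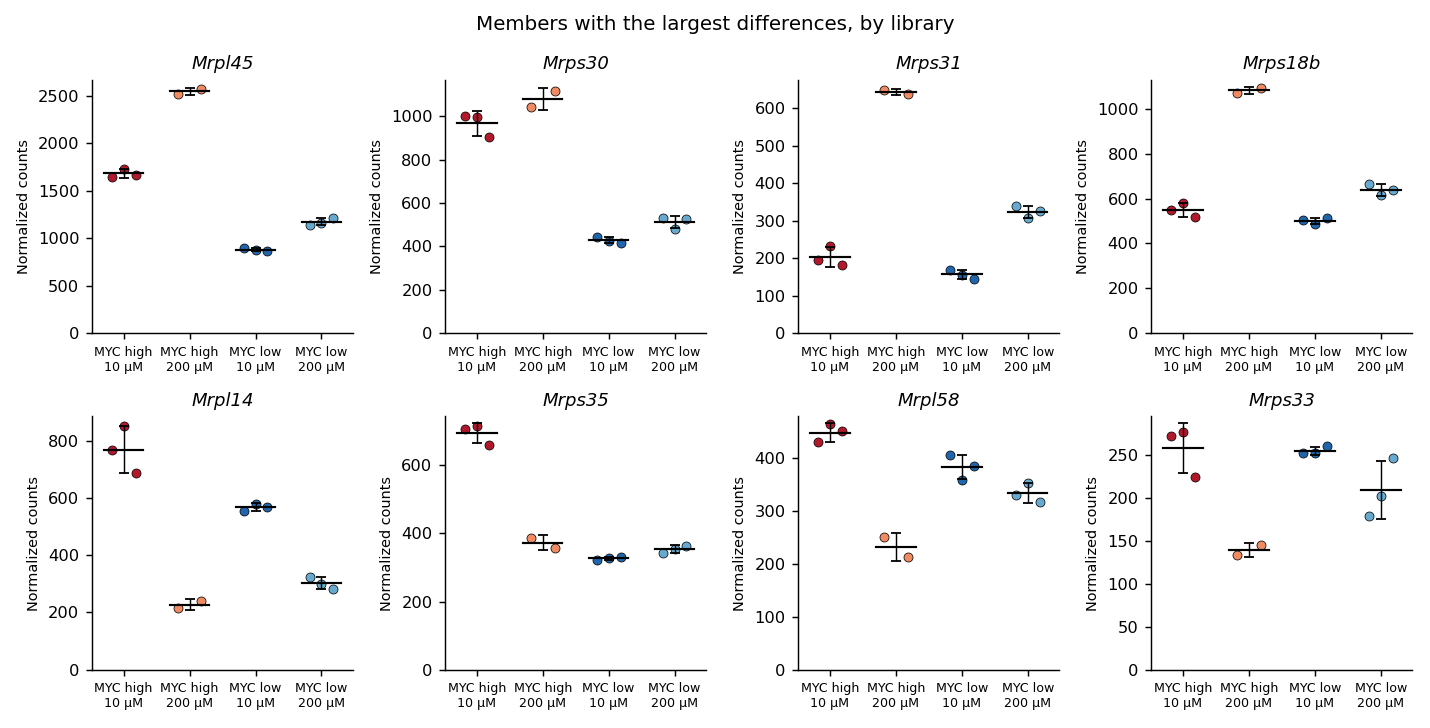
Normalized counts of 8 members in each library, with group means (long lines) and SD (error bars, n = 3, or 2 for MYC high at 200 µM). Mrpl45 and Mrps30 are higher in MYC high cells in both media, Mrps31 and Mrps18b are highest in MYC high cells at 200 µM, Mrps35 is highest in MYC high cells at 10 µM, and Mrpl58 and Mrps33 are lowest in MYC high cells at 200 µM.

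Several members share their start region with a neighbour transcribed the other way, and values of such pairs are set side by side here. Of the 69 members with a window, 24 overlapped the window of a gene on the opposite strand. The share over all genes was not taken, so this count does not set the members apart. Mrps11 and Mrpl46 share 141 bases and are the only such pair in which both are members. Mrpl46 was higher in MYC high cells by 0.57 at 200 µM and 0.36 at 10 µM, while Mrps11 differed by 0.14 (adjusted p = 0.259) and 0.15 (adjusted p = 0.156). Mrpl32 and Psma2, a proteasome subunit gene, share 296 bases. Their MYC differences were 0.30 and 0.38 at 200 µM and 0.32 and 0.30 at 10 µM, and for 10 against 200 µM they stood at 0.37 and 0.62 in MYC high cells and 0.35 and 0.69 in MYC low cells. Mrpl49 and the ribosomal protein gene Fau share 291 bases. Between media Mrpl49 was lower (−0.38) and Fau higher (0.32) in MYC high cells, and Mrpl49 was higher (0.25) and Fau lower (−0.21) in MYC low cells. Mrpl14 was lower at 200 µM and higher at 10 µM in MYC high against MYC low cells (−0.40 and 0.43), whereas Tmem63b, which shares 230 bases of its window, was lower in both (−0.75 and −0.48).

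Other genes of mitochondrial translation were described from lists written from general knowledge, whose counts stand beside 36.8% of all genes higher and 37.6% lower in MYC high cells at 200 µM, and 35.7% and 35.8% at 10 µM. Of 6 other-named genes listed with the ribosome, Dap3, Ptcd3, Chchd1, Gadd45gip1 and Ndufab1 were higher in MYC high cells in both media. Aurkaip1 passed in neither medium (0.14 and −0.04), and Ndufab1 was assigned to neither subunit. Ptcd3, a small subunit protein that binds RNA, was higher by 0.72 at 200 µM and 1.08 at 10 µM. Of 28 assembly and ribosomal RNA modification genes 12 were higher and 6 lower in MYC high cells at 200 µM (median 0.30), and 16 were higher and 3 lower at 10 µM (median 0.23). Mrm3 (1.44), Rpusd4 (1.23) and Mrm1 (1.13), which modify ribosomal RNA in mitochondria, led at 200 µM, while Rbfa, an assembly factor of the small subunit, was lower (−0.76). Noa1, an assembly GTPase, averaged 900 ± 35.3 normalized counts with MYC high and 329 ± 9.71 with MYC low in the 10 µM medium (SD, n = 3 each, log2 1.45). The shares higher and lower at 200 µM were 42.9% and 21.4% of this list. In MYC high cells 10 of the 28 were higher and 11 lower at 10 than at 200 µM. Of all genes 37.9% passed in each direction. In this list 3 were at least 2-fold higher and 4 at least 2-fold lower, where 13.0% and 9.18% of all genes were. The largest log2 difference upward was 1.54, and Gtpbp10 (−1.36), Mrm3 (−1.44) and Mterf3 (−1.41) were among the lower ones.

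Of 13 translation factor genes, 5 were higher and 3 lower in MYC high cells at 200 µM (median −0.028), and 10 were higher and 0 lower at 10 µM (median 0.40). At 10 against 200 µM in MYC high cells 10 were higher and 1, Mrrf, was lower. Tufm, the elongation factor that carries aminoacyl-tRNA, averaged 1893 ± 72.1 normalized counts with MYC high and 1078 ± 16.8 with MYC low at 10 µM (SD, n = 3 each). At 200 µM it averaged 1039 ± 72.3 with MYC high and 742 ± 30.6 with MYC low (SD, n = 2 and 3). Gfm1, the translocation factor, was lower in MYC high cells at 200 µM (−0.27) and higher at 10 µM (0.44). Of 20 mitochondrial aminoacyl-tRNA synthetase genes 8 were higher and 3 lower in MYC high cells at 200 µM, and 15 were higher and 1 lower at 10 µM. The shares higher at 200 µM, 38.5% of the translation factor genes and 40% of the synthetase genes, are near the 36.8% of all genes. Of 14 tested regulators of mitochondrial transcription and biogenesis, 11 were higher and 1 lower at 200 µM and 12 were higher at 10 µM. Tfam, which packages mitochondrial DNA, was higher by 0.76 and 0.79, and Polrmt, the mitochondrial RNA polymerase, by 0.88 and 0.16.

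The messenger RNAs that this ribosome translates went the other way. All 8 tested of the 13 mitochondrially encoded messenger RNAs were lower in MYC high cells at 200 µM (median −1.05), and 7 of 8 were lower at 10 µM (median −1.03). mt-Co1 averaged 35148 ± 1064 normalized counts with MYC high and 67570 ± 1616 with MYC low in the 200 µM medium (SD, n = 2 and 3). The other 5 had means under 10, and mt-Co3, the one that did not pass at 10 µM, had a mean of 16.6. The mean of mt-Co1 over all libraries was 47913, and why the means of these genes were so low was not tested. Genes of the cytosolic ribosome were higher in MYC high cells in 77 of 78 tested, at medians of 0.59 at 200 µM and 0.99 at 10 µM, beside 0.43 and 0.41 for the mitochondrial ribosome. In MYC low cells 73 of the 78 were lower at 10 than at 200 µM (median −0.50), where 29.9% of all genes were. Of the 77 mitochondrial ribosome genes 17 (22.1%) were lower there (median 0.049). In MYC high cells 38 of the 78 were lower and 17 higher (median −0.085). Of the 77 mitochondrial ribosome genes 15 were lower and 39 higher there (median 0.16), where 37.9% of all genes passed in each direction. No test of the difference between these lists was made.

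**Figure D5:**
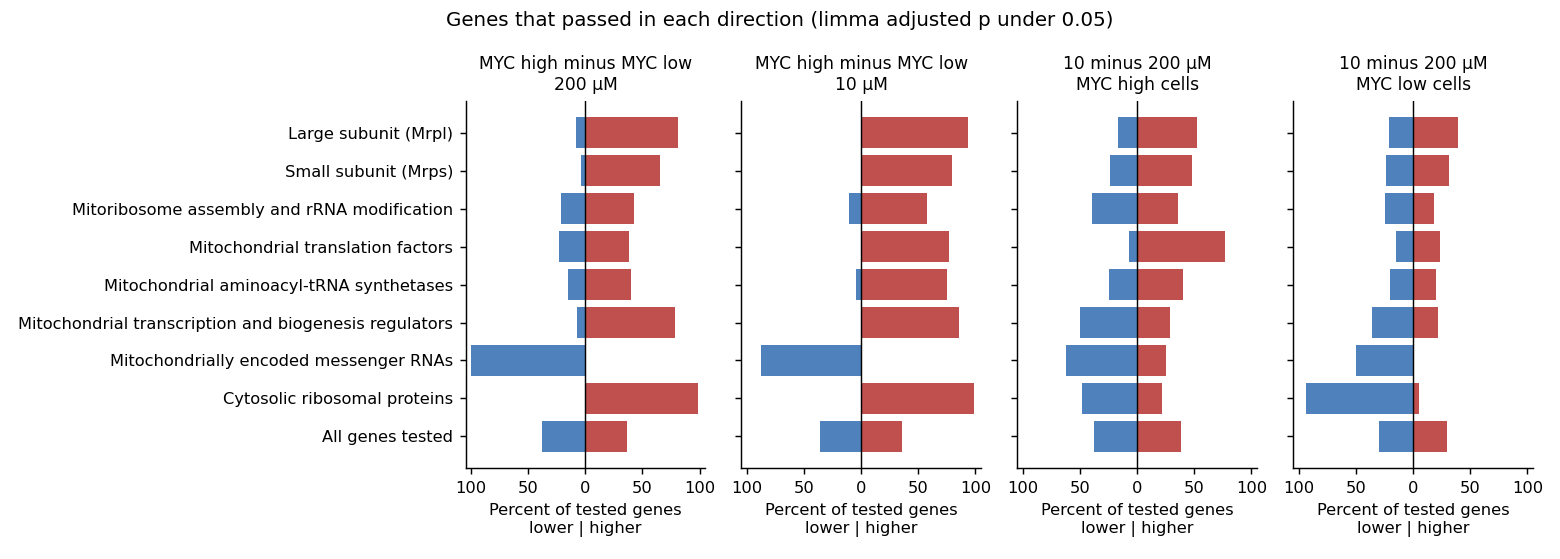
Percent of the tested genes of each list that passed higher (right of 0) or lower (left of 0) in 4 comparisons, by limma at an adjusted p of 0.05. Both subunits of the mitochondrial ribosome lie mostly to the right in the MYC comparisons, mitochondrially encoded messenger RNAs to the left, and cytosolic ribosomal proteins to the left at 10 against 200 µM in MYC low cells.

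The identity of reads limits some members. Of the 78 genes, 18 have a processed pseudogene that matches at 95% identity or more over at least 200 bases, so that reads can be shared between copies. Nearly all copies held few counts, and the highest was AC154457.3, a copy of Mrps10, at a mean of 25.1 normalized counts beside 412 for Mrps10. Exons of 33 members overlap another annotated gene, 18 of them over more than 10% of their bases and 3 (Mrpl53, Mrps34 and Mrps25) over more than 50%. Whether counting used strand is not stated in the sources used here, and reads of overlapping genes on opposite strands cannot be told apart.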

How the data were processed

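Polyadenylated RNA of 11 libraries was analysed from the deposited signal values, which the labels call normalized counts. Per the submitters' processing notes, alignment and counting involved STAR and HTSeq, with DESeq2, fastp, FastQC and SAMtools also listed, on GRCm39. No version, annotation release or strand setting is given in the sources used here. In every library 100% of values were whole multiples of 1 step within 0.001, so whole reads could be recovered, 10858936 to 13085689 per library, and edgeR on these reads called 9583, 9386, 9718, 7915 and 7757 genes in the 5 comparisons, in the order of the report. Symbols, transcript lengths and exon overlaps came from GENCODE M21 (GRCm38), which named 52135 of 55416 identifiers, and promoter windows from RefSeq (GRCm38.p6). Differences were tested on log2(value + 1), where changes of low genes come out too small, by limma 3.58.1 (R 4.3.3) in a single fit of all 4 groups with a common spread (7 residual and 29.0 prior degrees of freedom), Benjamini-Hochberg adjustment over 12909 genes with a mean of at least 10, and a threshold of 0.05. This takes the spread of the group with 2 libraries to equal that of the rest. Pseudogene copies were found with BLAST+. SE is limma's moderated standard error, SD that between libraries. Precision is limited by counting error: 0 reads allow up to 3 reads, or 2.65 to 3.43 normalized counts.

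Genes were named by a rule: the 3 largest passed differences in each direction, members fixed by role, the most and least abundant, Myc, and from each list up to 3 genes by adjusted p or against its direction. Mrps10, Mrps11, Mrps15, Mrps25 and Mrps26 were named after their values were seen, as were the neighbours of members. So were Mrpl2, Mrpl33, Mrpl34, Mrpl36, Mrpl38, Mrpl41, Mrpl43, Mrpl46 and Mrpl53. The remaining members named appear without values of their own. Members and lists were chosen with earlier results of these data known, so lists carry counts and medians without tests. Alternatives covered the pseudocount, the filter, scaling, edgeR 4.0.16, DESeq2 1.42.0, a replicate block, each library left out and other subunit assignments.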

Additional observations from a re-analysis of the deposited data

Results flagged for a closer look

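The methionine response differed between MYC high and MYC low cells in 23 of the 33 named members, by limma's interaction test at an adjusted p under 0.05. Some of the 33 were named for a large interaction, so this count is not set against all genes. Over all 77 tested members 40 passed (51.9%), where 60.4% of all genes did. Values are differences of log2 responses, MYC high less MYC low. They were positive in Mrps35 (1.01), Mrpl30 (0.88), Mrps9 (0.86), Mrpl14 (0.83), Mrpl58 (0.75), Mrps33 (0.58), Mrpl15 (0.56), Mrpl24 (0.40), Mrps36 (0.39), Mrpl4 (0.32), Mrpl3 (0.26), Mrps2 (0.22) and Mrpl12 (0.15).

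They were negative in Mrpl49 (−0.63), Mrps18b (−0.63), Mrps31 (−0.61), Mrps18c (−0.55), Mrps7 (−0.47), Mrpl9 (−0.38), Mrpl11 (−0.33), Mrps6 (−0.33), Mrpl18 (−0.31) and Mrpl45 (−0.18). Calls that were lost when a library of MYC high cells at 200 µM was left out were those of Mrpl12, Mrpl18 and Mrps36 without replicate 3 (0.12, −0.20 and 0.16) and of Mrps18c and Mrps2 without replicate 2 (−0.38 and 0.12). Leaving out a library of another group also ended the call of Mrpl12 (0.10 to 0.15), of Mrps2 (0.19 and 0.20) and of Mrps18c (−0.48). DESeq2 did not call Mrpl12, Mrps2, Mrps18c or Mrps36 (adjusted p = 0.0814, 0.0888, 0.0506 and 0.0595), nor did limma without the low-value filter call Mrpl12 (0.115). Mrps7 was higher at 10 µM in MYC low cells (0.43) and had a difference of −0.04 in MYC high cells (adjusted p = 0.544), with 957 to 996 normalized counts in MYC high cells at 200 µM.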

How the results depend on the processing

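No count of members moved by over 1.5 times under any alternative run, and no named result turned its direction. Of 3300 alternative values of the 165 results of named members, 3198 kept their call, 72 lost it and 30 gained it. Under equal library totals the median difference of the members was 0.34 at 200 µM and 0.35 at 10 µM, in place of 0.43 and 0.41. The difference of large and small subunit medians at 200 µM, 0.21 as reported, was 0.10 with subunits assigned by place and 0.10 with the other-named proteins added, and −0.12 with them for 10 against 200 µM in MYC high cells. With each library left out in turn, the median of members ran from 0.38 to 0.44 at 200 µM, 0.10 to 0.19 for methionine in MYC high cells and 0.026 to 0.14 for the interaction. The difference of subunit medians ran from 0.094 to 0.21 for MYC at 200 µM, −0.024 to 0.076 and 0.050 to 0.14 for methionine in MYC high and MYC low cells, and −0.16 to −0.00049 for the interaction. Same-numbered libraries of different groups had deviations correlated at −0.049 to 0.026, so the numbers do not pair them, and with the replicate block 61 members passed at 200 µM and 67 at 10 µM, 52 and 45 for methionine in MYC high and MYC low cells, and 40 for the interaction. Of the calls of named members, the block ended that of Mrpl30 at 200 µM (adjusted p = 0.0589). DESeq2 called 59, 65, 51, 40 and 33 members in the 5 comparisons and edgeR 62, 69, 56, 45 and 41. The cause of these shifts was not tested. With 2 libraries in MYC high cells at 200 µM, comparisons that use them rest on the spread of the other groups, and small differences between members near 100 normalized counts or below were not detectable at this depth.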
